A study of Mus musculus with 2 samples.

Results

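The genes Mir6896 to Mir7093 are a run of mouse miRNA genes with consecutive registry numbers, and they were examined here in small RNA from the embryonic forebrain. Every gene named Mir with a number in that run, with or without a letter or copy suffix, was taken from the deposited table by its GENCODE name, which gave 177 of the 1973 genes (8.97%). The rule uses names only and no measured value, although it was set with earlier results of these data known. The annotation holds 199 such genes, and the other 22 were not analysed here. Forebrains came from B6NCrl mouse embryos at day 14.5, with no treatment, transgene or mutation named, and 2 libraries of the size range below 30 form the only group. Each is labelled as 1 forebrain and they were collected on separate days, yet the sex is given as a pool of both sexes and the donor identifier is shared. Whether they are 2 embryos is therefore not settled, and the spread between them may be partly technical. With 1 group there was no condition to compare.

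Replicate 1 held 18598385 reads and replicate 2 held 20638071. Of these, 7080317 and 7946585 were counted on the strand of a miRNA gene, and levels are given as CPM, the counts per 1000000 of that total. A single count thus equals 0.141 CPM in the first library and 0.126 CPM in the other, and the limit that a count of 0 allows (3 counts) was 0.424 and 0.378 CPM. CPM was not divided by hairpin length, since 1 read stands for 1 small RNA. A neural marker list (including Mir9-3, Mir137 and Mir128-1) had all 7 genes at 10 or more counts in both libraries, with mean levels of 595 to 7614 CPM. The endothelial Mir126a stood at 22234 CPM, the 3 immune markers at 38.6 to 81.0 CPM and the liver marker Mir122 at 10.3 CPM. Of 3 striated muscle markers, 1 stood at 16.4 CPM and 2 had no count. Reads that match several places were assigned to no gene, so a count of 0 need not mean that the RNA was absent. In a whole tissue, fewer cells of a type and less RNA per cell cannot be told apart.

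A miRNA is a short RNA that guides Argonaute proteins to messenger RNAs, mainly by pairing through its seed near the 5′ end. Most miRNAs are cut out of a longer transcript as a hairpin by the nuclear enzyme Drosha, and the hairpin is then trimmed by Dicer. Mirtrons take another route: a short intron is spliced out, its lariat is opened, and the intron itself folds as the hairpin that Dicer cuts, without Drosha. In a tailed mirtron the splice site sets only 1 end of the hairpin, and the remaining stretch of intron has to be removed by other nucleases. Introns begin with GU at the donor (5′) splice site and end with AG at the acceptor (3′) splice site, after a stretch rich in pyrimidines (C and U).

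The hairpins of 3 genes of the run that are complete introns show how the transcript of the host gene and the hairpin coincide. Sequences are from RefSeq on GRCm38.p6, 5′ to 3′, with the GU and AG at the ends of the intron in capitals. Mir6944 lies at chr13:55477681-55477776 on the minus strand in Dbn1, Mir6958 at chr15:89185465-89185537 on the minus strand in Dennd6b, and Mir7068 at chr8:72470016-72470089 on the minus strand in Cherp.
Mir6944 hairpin: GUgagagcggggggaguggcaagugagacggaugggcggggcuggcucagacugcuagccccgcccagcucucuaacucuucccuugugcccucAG
Mir6958 hairpin: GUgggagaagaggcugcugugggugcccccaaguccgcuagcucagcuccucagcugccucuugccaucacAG
Mir7068 hairpin: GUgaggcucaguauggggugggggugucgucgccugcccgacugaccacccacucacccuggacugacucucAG

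Mature sequences are shown for 9 of the 10 highest genes of the run, the remaining one being Mir6971, with the seed (bases 2 to 8) in capitals. They show a pair of features that recur below, a 5′ arm rich in G and a 3′ arm that, in all but Mir6977, ends in AG where the intron ends.
mmu-miR-6944-5p: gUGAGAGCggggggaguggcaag
mmu-miR-6944-3p: uAACUCUUcccuugugcccucag
mmu-miR-6977-5p: gUGAGGCGcugugggcacggcuugg
mmu-miR-6977-3p: aAGGCGUUgccugacccugacc
mmu-miR-6897-5p: uGGGGGCAgugucacacgcuguu
mmu-miR-6897-3p: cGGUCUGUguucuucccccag
mmu-miR-6900-5p: uGCCAGGAgaagccuagagccguc
mmu-miR-6900-3p: uGGUGAUGggcucucuuguag
mmu-miR-7066-5p: uGGGUUGGgaaaugaguagagg
mmu-miR-7066-3p: uCUACCCAuugccugccucccag
mmu-miR-6991-5p: uGGAGAACagggacugggccug
mmu-miR-6991-3p: gCAGCCCUuuguucuucuccag
mmu-miR-6958-5p: gUGGGAGAagaggcugcugugg
mmu-miR-6958-3p: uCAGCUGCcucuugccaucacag
mmu-miR-7083-5p: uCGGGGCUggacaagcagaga
mmu-miR-7083-3p: uCUGCUCUccuggaccccag
mmu-miR-6928-5p: aGGGGAUUugcauggacugcacu
mmu-miR-6928-3p: aAGCUGUUccuguacucuccag

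Nearly the whole run sits at the ends of introns. All 177 hairpins lie within a protein-coding gene on the same strand, in 173 host genes, whereas 856 of the 1717 other named miRNA genes (49.9%) lie in any host gene. At 164 of the 177 genes (92.7%) the last base of the hairpin is the last base of an annotated intron, against 22 of 1717 other genes (1.28%). With ends within 5 nt of a splice site taken as matching, 169 of 177 hairpins have such an end, and 43 other genes do. Several of the 43, such as Mir7115, Mir7119 and Mir7226, have numbers after the run, so such ends are not particular to it. The pooled share of other genes is not split by range of number here. Of the 169, 15 span an intron from donor to acceptor, 150 meet the acceptor only and 4 the donor only. Of the remaining 8 and the donor class together, 7 hairpins end 6 or 7 nt past an acceptor. These positions come from the annotation alone and use no count.

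**Figure D1:**
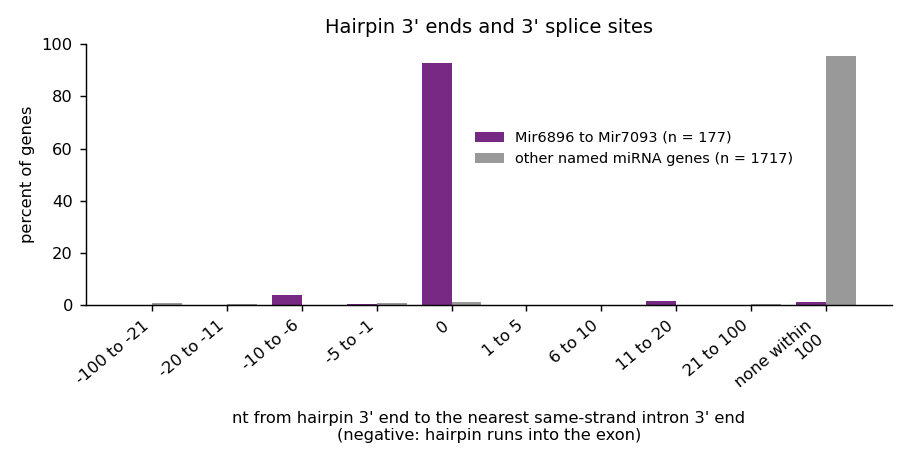
Distance from the 3′ end of the hairpin to the nearest acceptor splice site (x, nt) against the percent of genes (y), for the genes Mir6896 to Mir7093 and for the other named miRNA genes. The genes of the run stand at distance 0 in 92.7% of cases, while 95.3% of other genes have no acceptor within 100 nt.

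For the 150 hairpins that meet the acceptor only, the stretch of intron between the donor and the hairpin had a median length of 428 nt and ranged from 7 to 36205 nt. The 15 intron-spanning hairpins lie in introns of 67 to 137 nt, and 13 of them begin with GT and end with AG in the genome. Mir6977, in Ptprs (a receptor phosphatase of axons), begins at a donor and stops 15 nt before the acceptor of a short intron. Mir6936 and Mir6927 likewise stop 12 and 17 nt before it. An annotated exon of some transcript of the host contains 27 of the hairpins. Among them are Mir7068 and the detected Mir6958, Mir7019 and Mir6935. Whether reads at such hairpins came from a spliced intron was not tested.

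The hairpin sequences carry the letters of an intron end. This follows from their position, since all 164 hairpins that end in AG meet an acceptor. The AG and the pyrimidines before it are therefore not a separate finding. The last bases were AG in 164 of 177 hairpins (92.7%), in 114 of 1717 other genes (6.64%) and in 32 of the 465 genes with numbers below 1000 (6.88%). Of the 20 nt before that AG, a median of 75% were pyrimidines, against 50% in the other genes. The base just before the AG was C or U in 95.5% of the run. G made up a median of 45% of the first 20 nt, against 30%. The hairpins had a median length of 66 nt (52 to 137), against 94 nt in the other genes. By range of number it was 84 nt below 1000, 87 nt between there and the run, and 63.5 nt after the run. Short hairpins are thus not particular to the run. G and C made up a median of 57.8%, against 50% in the other genes.

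**Figure D2:**
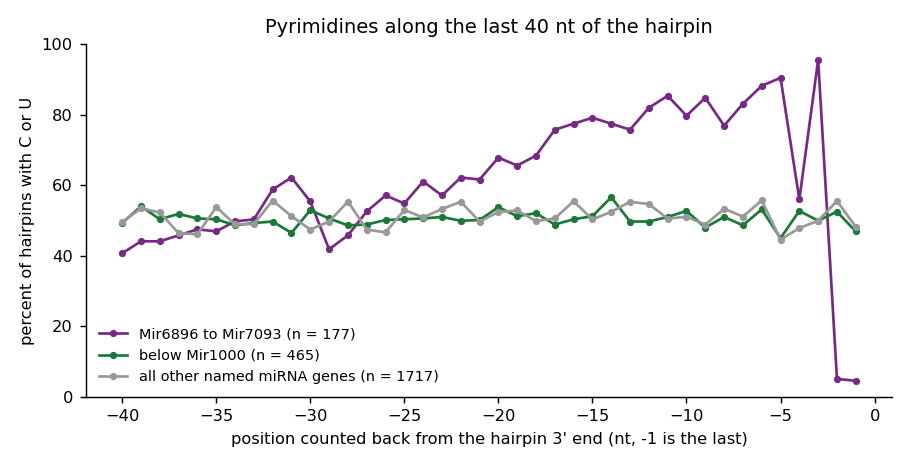
Percent of hairpins with C or U (y) at each position counted back from the 3′ end (x, nt), for the 177 genes of the run, for the 465 with numbers below 1000 and for all 1717 other named miRNA genes. In the run the last 2 positions fall to 4.52% and 5.09%, and the third from the end stands at 95.5%.

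Sequence sharing with other annotated miRNA genes was rare in the run. A stretch of 20 nt or more recurred in another annotated miRNA gene for 2 of the 177 hairpins, Mir6970 and Mir7065, and for 927 of 1717 other genes (54.0%). Most of the 927 (707) have names outside the Mir number series. Sharing was seen for 176 of 465 genes with numbers below 1000, 32 of 304 between there and the run, and 12 of 96 after it. Sharing bears on the counts because reads that match several places (43.3% and 42.2% of all reads) were assigned to no gene. Matches outside the annotated miRNA genes were not searched.

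Mature sequences were found in RefSeq for 162 of the 177 genes, 310 in all. Of the 154 mature 3′ arms, 116 (75.3%) end at the last base of the hairpin, and 84 of 468 in the other genes (17.9%) do. Only 21 of the 156 mature 5′ arms begin at the first base of the hairpin. The 310 sequences hold 285 different seeds, so the run is not a seed family: 21 seeds are shared within it, by 45 genes and by at most 3 genes each. A seed found also in a mature miRNA outside the run occurs in 47 genes. Mir7069, which was detected, has the seed of miR-18a-3p (CUGCCCU) on its 3′ arm, and miR-6958-5p has that of miR-30c-1-3p and miR-30c-2-3p. The counts here belong to whole hairpins, so the arm a read came from is not known.

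Mir6944 was the only gene of the run above 10 CPM. It lies in Dbn1, which encodes drebrin, an actin-binding protein of neuronal dendrites, and it had 344 counts in replicate 1 and 313 in replicate 2. That is 48.6 and 39.4 CPM, with a mean of 44.0 ± 6.50 (SD, n = 2), and rank 235 among all genes. It held 30.2% and 26.7% of the counts of the run and lay 9.32-fold above the gene with the next highest level.

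**Figure D3:**
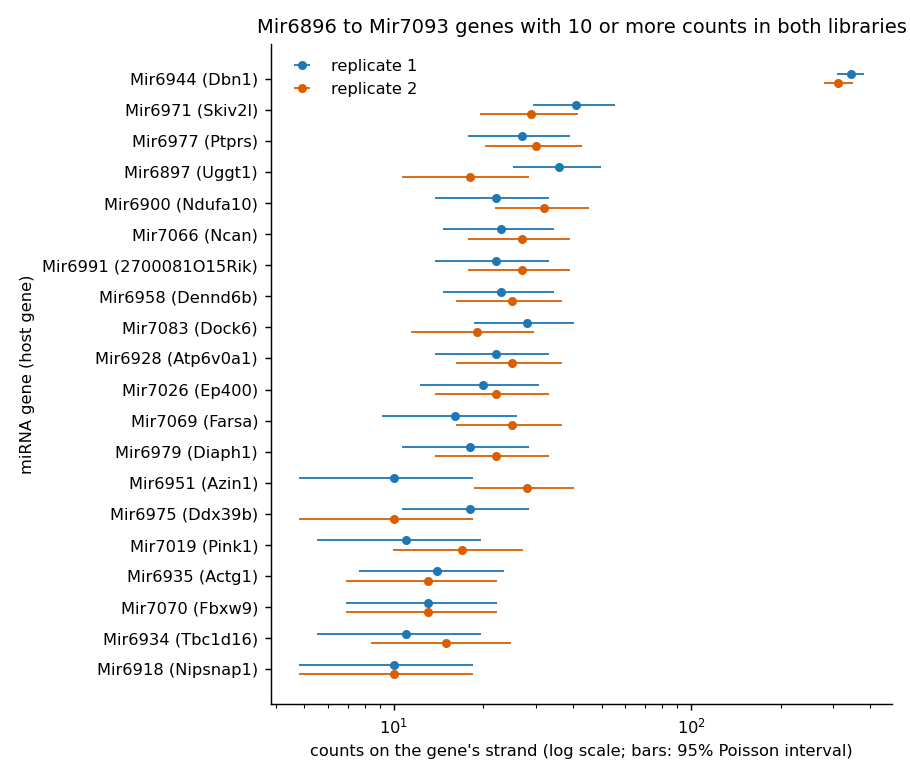
Counts on the gene's strand in each library (x, log axis) of the 20 genes of the run that reached 10 in both libraries (y, with host gene), with 95% Poisson intervals as bars. Mir6944 stands alone at 344 and 313 counts, and the other 19 lie between 10 and 41.

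Another 19 genes reached 10 counts in both libraries, the minimum used here for calling a gene detected, with mean levels of 1.34 to 4.72 CPM and a median of 2.80. Their counts were 10 to 41, and a count of 10 has an exact Poisson interval of 4.80 to 18.4, which covers counting error only. In the order of level, neighbouring genes had overlapping intervals in both libraries except Mir6944 above Mir6971, and in replicate 2 Mir6951 above Mir6975. The order of neighbours among the 19 is therefore mostly unresolved at this depth. Genes further apart in the order can be resolved. Mir6971 had intervals of 29.4 to 55.6 counts in replicate 1 and 19.4 to 41.65 in replicate 2, above the 4.80 to 18.4 of Mir6918 in each.

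Some hosts serve the neuronal surface, the brain matrix or the cytoskeleton. Mir6977 in Ptprs had 27 and 30 counts (3.79 ± 0.0270 CPM). Mir7066, in the gene of the brain matrix proteoglycan neurocan (Ncan), had 23 and 27 counts (3.32 ± 0.106 CPM). Each of these 2 genes had nearly the same CPM in both libraries. Their counting intervals for the ratio of replicate 2 over replicate 1 are wide, 0.592 to 1.66 and 0.604 to 1.81, so such close agreement is not resolved. Mir7083 in Dock6 had 28 and 19 counts, and Mir6979 in Diaph1, a formin that builds actin filaments, had 18 and 22. Mir6935 in Actg1, the cytoplasmic gamma actin gene, had 14 and 13.

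Other hosts serve organelles. Mir6900 in Ndufa10, a subunit of mitochondrial complex I, had 22 and 32 counts (3.57 ± 0.650 CPM). Mir6928 in Atp6v0a1, a subunit of the proton pump of vesicles and lysosomes, had 22 and 25 counts (3.13 ± 0.0274 CPM). Mir6897 in Uggt1, a sensor of glycoprotein folding in the endoplasmic reticulum, had 36 and 18 counts, so replicate 1 lay above replicate 2. Mir7019 in Pink1, a kinase that marks damaged mitochondria, had 11 and 17, and Mir6918 in Nipsnap1, a mitochondrial protein, had 10 in each.

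A further set lies in genes of RNA, chromatin and protein synthesis. Mir6971 in Skiv2l, a helicase that feeds RNA to the cytoplasmic exosome, had 41 and 29 counts (4.72 ± 1.51 CPM). The same host holds the intron-spanning Mir6970, which had 4 counts in each library. Mir6975 in Ddx39b, a helicase of splicing and RNA export, had 18 and 10 counts, Mir7026 in the chromatin remodeller gene Ep400 had 20 and 22, and Mir7069 in Farsa, a subunit of phenylalanyl-tRNA synthetase, had 16 and 25. The remaining detected genes were Mir6991 in 2700081O15Rik (22 and 27 counts), Mir6958 in Dennd6b (23 and 25), Mir7070 in Fbxw9 (13 and 13), Mir6934 in Tbc1d16, a GTPase-activating protein for Rab proteins (11 and 15), and Mir6951 in Azin1, a regulator of polyamine synthesis (10 and 28).

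The other 157 genes were below the minimum in at least 1 library, and 40 of them (22.6% of the run) had no count in either. They were not empty as a group: together they had 410 counts in replicate 1 and 453 in replicate 2, 36.0% and 38.6% of the run. Of these, 20 reached 10 counts in 1 library only. Counts in replicate 1 and replicate 2 were 18 and 8 for Mir6988, 15 and 4 for Mir6911, 14 and 1 for Mir6968, 12 and 5 for Mir6990, 12 and 3 for Mir6945, 11 and 8 for Mir7063, 11 and 6 for Mir7013, 11 and 5 for Mir7059, and 10 and 8 for Mir7089. Replicate 2 was the higher at Mir6907 (8 and 16), Mir6899 (3 and 16), Mir6960 (4 and 13), Mir6998 (8 and 12), Mir6940 (4 and 11), Mir6956 (3 and 11), Mir6903 (7 and 10), Mir7071 (5 and 10), Mir7075 (4 and 10), Mir7033 (3 and 10) and Mir7056 (0 and 10).

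In all, the 177 genes held 1139 and 1173 counts, 0.0154% ± 0.000938 of the miRNA counts (SD, n = 2). The Wilson interval was 0.0152 to 0.0170% in replicate 1 and 0.0139 to 0.0156% in replicate 2. The median gene of the run had 2 counts in each library, a level of 0.34 on the log2(CPM + 1) scale. The median level was 4.65 for genes with numbers below 1000, 0 between there and the run, and 0.09 after it. Over all genes it was 0, but 931 of them have names outside the Mir number series, and 93.8% of those had no count. None reached 100 CPM in both libraries, as 185 genes of the table did.

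Few genes of the run were detected, while most had at least a trace. In the run 20 of 177 genes (11.3%) were detected, against 290 of 465 with numbers below 1000 (62.4%), 64 of 304 between there and the run (21.1%), 12 of 96 after it (12.5%) and 399 of all 1973 (20.2%). At least 1 count in either library was found for 137 of 177 (77.4%), against 73.6%, 48.7% and 54.2% in those 3 ranges. Among hairpins that share no 20 nt with another annotated miRNA gene the shares were 77.1% in the run (175 genes), 57.1% over other genes (790) and 82.0% below 1000 (289). These shares describe the table and were not tested.

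**Figure D4:**
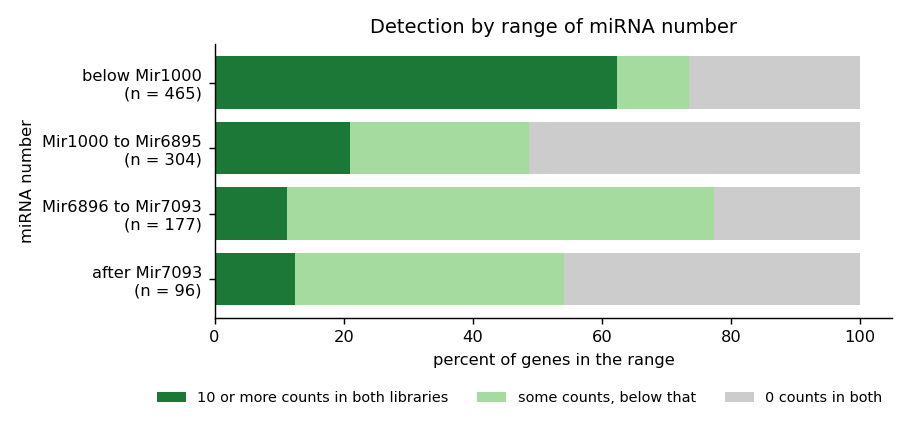
Percent of genes (x) that had 10 or more counts in both libraries, some counts below that, or none, by range of miRNA number (y). The run stands at 11.3% detected, 77.4% with a count and 22.6% with none.

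Levels by geometry are given as counts of genes. Detected were 3 of 15 intron-spanning genes (Mir6944, Mir6958 and Mir7070), 16 of 150 that meet the acceptor only, 1 of 4 that meet the donor only, and 0 of 8 with neither. Among acceptor-only genes, 3 of 41 with a stretch under 100 nt before the hairpin were detected, 6 of 65 with 100 to under 1000 nt, and 7 of 44 with 1000 nt or more. The intron-spanning genes below the minimum were Mir7068 (9 and 7 counts), Mir7080 (3 and 9), Mir7082 (3 and 7), Mir6970, Mir6981 (3 and 3), Mir7060 (1 and 5), Mir7018 (2 and 2), Mir7058 and Mir7091 (1 and 0 each), and Mir6923, Mir6974 and Mir7088 with none.

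Mirtrons described earlier gave a scale for these levels. Mir702 in Plod3, which by position meets the acceptor only, had 796 and 758 counts (104 ± 12.1 CPM). The intron-spanning Mir877 in Abcf1 had 533 and 515 (70.0 ± 7.40 CPM), and Mir1224 in Vwa5b2, also intron-spanning, had 38 and 46 (5.58 ± 0.298 CPM). Mir6944 thus lay between Mir877 and Mir1224 in both libraries, and next to the intron-spanning Mir1981 (45.1 ± 3.58 CPM) and Mir3102 (34.1 ± 6.26 CPM). Outside the run 8 genes span an intron, and 6 of them were detected. The other 19 detected genes of the run had mean levels below that of Mir1224. So did the intron-spanning Mir3547 (4.82 ± 0.830 CPM) and Mir1982 (3.83 ± 0.817 CPM) outside the run.

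For each gene, its counts and the remaining miRNA counts of both libraries were set against each other by Fisher's exact test (two-sided), with Benjamini-Hochberg adjustment over 1973 genes. With 1 library on each side, the p-values cover counting error alone and say nothing of other embryos. At an adjusted p of 0.05 and a 2-fold ratio, 3 of the 177 genes (1.7%) were called, against 7 of all genes (0.355%), of which these 3 are part. Genes with no count in either library cannot be called, and they make up 62.65% of all genes but 22.6% of the run. The shares over all genes and over the run are therefore not directly comparable. Of the run, 1 gene was higher in replicate 2, where 4 of all 1973 genes were (0.203%), and 2 were higher in replicate 1, where 3 of all genes were (0.152%). Without the minimum ratio the same 3 were called, against 178 of all genes (9.02%). An unadjusted p under 0.05 was found for 13 genes of the run, and for 235 of all genes (11.9%).

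Mir6968, in the gene of the Polycomb-associated protein Phf1, had 14 counts in replicate 1 and 1 in replicate 2, a ratio of 15.7 (2.64 to 93.5) with a Fisher's exact adjusted p of 0.00372. Mir7056, in Ptpn5, which encodes a phosphatase enriched in striatal neurons, had 0 and 10 counts and was at least 2.97-fold higher in replicate 2 against the 3-count limit per library, with a Fisher's exact adjusted p of 0.0254. That bound takes the 10 counts as measured, and the counting interval of the ratio, which covers the error of both counts, begins at 2.32. Mir6897 was 2.24-fold higher in replicate 1 (1.28 to 3.92), with a Fisher's exact adjusted p of 0.0457. That call was lost under each of the 3 other scalings, TMM, median-of-ratios and totals without the most abundant gene Mir99a, at adjusted p of 0.103, 0.108 and 0.101. The 5 epithelial markers summed to 366 CPM in replicate 1 but 751 in replicate 2, and their part in these differences was not tested.

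**Figure D5:**
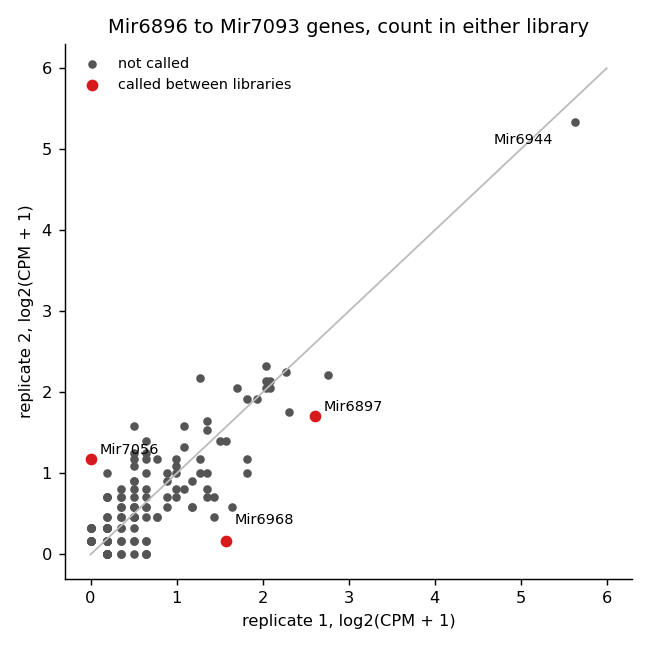
Level as log2(CPM + 1) in replicate 1 (x) against replicate 2 (y) for the 137 genes of the run with a count in either library, with the 3 called genes in red and a line of equality. Mir6944 lies apart at the top, and Mir7056 and Mir6968 lie near the axes.

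Among the 20 detected genes, 15 agreed within 1.5-fold and 17 within 2-fold, and the ratio interval held 1 for 17. It left out 1 for Mir6944, 1.23-fold higher in replicate 1 (1.06 to 1.44) with a Fisher's exact adjusted p of 0.0826, for Mir6897, and for Mir6951, 2.50-fold higher in replicate 2 (1.23 to 5.06) with an adjusted p of 0.139. The median fold between libraries was 1.21 over all 20. It was 1.34 for 54 other detected genes in the CPM range of the 19 without Mir6944, so the sets differ by that gene's higher level. By CPM 11 of the 20 were higher in replicate 1 and 9 in replicate 2, which turned to 8 and 12 under each of the 3 other scalings. Those scalings move the log2 ratio of replicate 2 over replicate 1 by 0.08, 0.11 and 0.07.

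The summed level of the run was 0.918 times as high in replicate 2 as in replicate 1 (0.846 to 0.996). The interval held 1 under each of the 3 other scalings, with ratios of 0.970 (0.894 to 1.05), 0.991 (0.913 to 1.08) and 0.963 (0.888 to 1.05). Without Mir6944 the ratio was 0.964 (0.875 to 1.06), and it was 1.02, 1.04 and 1.01 under those scalings. Over the 40 genes that reached 10 counts in at least 1 library, levels on the log2(CPM + 1) scale gave a Pearson correlation of 0.754 and a Spearman rank correlation of 0.510 between the libraries, and without Mir6944 0.454 and 0.471 over 39 genes. These are correlations across genes, which are not independent replicates. Counts on the opposite strand were nearly absent, with 0 in replicate 1 and 3 in replicate 2, 1 each at Mir7071, Mir6936 and Mir7091.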

How the data were processed

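Small RNA of 2 forebrain libraries was used as whole-number read counts per miRNA gene, deposited by the authors. Per the README deposited with each sample, counts came from 1 alignment file per library on mm10 with GENCODE M4, and for aligner and counter the sources used here give no name. Counts on the gene's strand were used and scaled to CPM. Names, introns and hairpin positions came from GENCODE M21 on the same assembly: 1894 of 1973 IDs matched, and the other 79 had at most 2 counts each. Sequences came from RefSeq (GRCm38.p6). The genes of the run, the comparison lists and the tests were chosen with earlier results of these data known. Named are all genes of the run with 10 or more counts in both libraries, all called genes, and once those with 10 in 1 library. Fisher's exact tests (scipy 1.17.1) were tested on simulated data, and TMM used edgeR 4.0.16. The simulation changed only genes with more counts than any gene of the run but Mir6944. It therefore does not show how the test performs at the lower counts of the called genes. Intervals cover counting error only, since PCR copies are not independent molecules. Alternatives covered count minimum, pseudocount, scaling, strand, ratio, shared sequence, splice tolerance and single libraries.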

Additional observations from a re-analysis of the deposited data

How the results depend on the processing

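The number of detected genes depends on the minimum: 108, 70, 39, 9 and 1 of the run had at least 1, 3, 5, 20 and 100 counts in both libraries, 40 had 10 in either, and 29 to 31 had 10 when 1 library was left out, against 20. Counting either strand, or leaving out shared sequence, gave 20 again. The share of counts was 0.00590% of all reads and 0.0221% without Mir99a, and 0.0148 to 0.0161% with 1 library left out. The median level was -1.54 with a pseudocount of 0.1, 2.40 with 5, 0.55 for genes with a count and 1.98 for detected genes, and 0.32 to 0.36 with 1 library left out. Mir6944 stood at 62.8 CPM without Mir99a in the total and at 39.4 to 48.6 CPM with 1 library left out. Testing only genes with 10 counts in either library (445 genes, fewer to adjust over) called 7 of the 40 genes of the run that were tested. Over all those tested 17 were called (3.82%), these 7 among them. The genes added were Mir6899, Mir6911, Mir6945 and Mir6951. Requiring 10 in both called 2 of the 20 genes of the run that were tested, Mir6897 and Mir6951, against 5 of all 399 tested (1.25%). Mir7056 and Mir6968 were then not tested. Splice-end matches numbered 168 to 175 over tolerances of 0 to 10 nt. No paired analysis was possible because there is only 1 group, and leaving out a library leaves no comparison of libraries. Most genes of the run had under 10 counts, so depth limits their order and any difference between libraries.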
